A study of Mus musculus with 18 samples.

Results

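The cardiac chamber transcription factors described here are 10 genes, Hand1, Hand2, Tbx2, Tbx5, Tbx20, Gata4, Gata6, Nkx2-5, Mef2c, and Irx4. They are listed by name as regulators of heart chamber formation, with no threshold on their values. They are 10 of the 34989 genes for which the estimated counts of all transcripts of a gene were added up in each library. Sequencing covered RNA of the left ventricle (LV) and right ventricle (RV) in 18 libraries, with 3 in every group of 1 ventricle and 1 time of cold storage. Every group came from C57B/L6 mice aged 12 weeks, per the labels, which name no mutation or transgene and give no sex. The methods of the study name C57BL/6J mice of both sexes and a younger age. All hearts, those of the 0 h groups included, were flushed with the preservation solution HTK. They were then kept in ice-cold HTK for 0, 4, or 8 h and perfused ex vivo with Krebs buffer for 1 h before the ventricles were frozen. The 0 h groups are thus perfused hearts without storage, not untouched hearts, and the buffer carried no blood cells to any group.

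These proteins bind DNA and together set up the heart muscle program. Hand1 and Hand2 are basic helix-loop-helix factors that mark the future left and right ventricles of the embryo. Tbx5 is a T-box activator of chamber muscle genes and Tbx20 a T-box factor of chamber muscle, whereas Tbx2 is a T-box repressor best known for keeping chamber genes off in the atrioventricular canal. Gata4, Gata6, Nkx2-5, and Mef2c bind beside them at shared heart enhancers, and Irx4 is a homeodomain factor of ventricular muscle. Hand2, the T-box genes, and the GATA genes are also used by cardiac fibroblasts, valve, epicardial, or mural cells, so that a level in a piece of ventricle is a sum over cell types.

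A gene was called changed when its adjusted p in edgeR's quasi-likelihood test was under 0.1 and its fold change was over 1.5. Levels are in CPM, the counts of a gene scaled to 1 common library total by TMM, and log2 fold changes are those of the fitted model. The libraries held 22552581 to 46236771 estimated counts, of which 22.7% to 34.4% came from genes of the mitochondrial genome. The filter on low counts passed 9 of the 10 members. Hand1 did not pass. It was at 0 in 14 of 18 libraries and reached at most 2 estimated counts, below a floor of 3 counts per library, which corresponds to 0.0651 to 0.133 CPM. It was therefore not detectable at this depth in either ventricle at any time, and no fold change is given for it. Gata4 had the most counts of the members (37931 over 18 libraries) and Tbx2 the fewest of those that passed (3073), with 68 counts in its lowest library.

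Levels per transcript length, in TPM (the share of transcripts in a library), put Nkx2-5 first in all 6 groups and Tbx2 last of the 9 members that passed. In LV at 0 h the mean level was 41.7 TPM for Nkx2-5 and 36.4 TPM for Gata4, and the ranges of these neighbours overlapped. Hand2 (20.3 TPM), Gata6 (19.3 TPM), and Mef2c (15.8 TPM) followed, and neighbours among these 3 overlapped. Tbx20, Irx4, and Tbx5 formed a lower group, at 10.4, 10.3, and 8.92 TPM, whose ranges overlapped with one another in this order but not with that of Mef2c. Tbx2 stood alone at 2.76 TPM. In RV at 0 h the order began in the same way, with 43.2 TPM for Nkx2-5 and 37.0 TPM for Gata4, and ended with 3.02 TPM for Tbx2. After 4 h Gata6 came before Hand2 in both ventricles. In RV at 4 h the 2 no longer overlapped, with a lowest level of 22.6 TPM for Gata6 and a highest level of 14.7 TPM for Hand2.

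**Figure D1:**
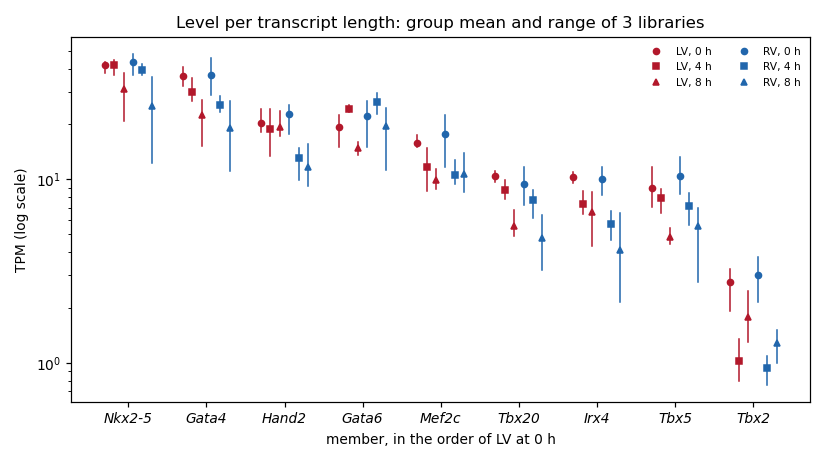
Level of each member in TPM on a log axis, with members in the order of LV at 0 h. Points are means of 3 libraries, lines span the lowest and highest library, red is LV and blue is RV; Nkx2-5 leads and Tbx2 is lowest in every group, and Hand1 is left out because it was at 0 in 14 libraries.

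Start sites are shown for 3 members called lower in RV, Irx4 and Tbx20 and, with the replicate block, Hand2, and for the start of Mef2c that held most of its counts. RefSeq start windows on GRCm38.p6 matched 5 of the 10 members (Hand2, Tbx20, Irx4, Nkx2-5, and Mef2c, the last with 3 starts). Each line below is the 250 bases before the start, 5′ to 3′ on the strand of the gene. Hand2 lies on the plus strand at chr8:57320733-57320982, Irx4 on the plus strand at chr13:73260247-73260496, Tbx20 on the minus strand at chr9:24774304-24774553, and the third start of Mef2c on the plus strand at chr13:83573357-83573606. Capitals mark matches on either strand to CANNTG (the E box, the motif of basic helix-loop-helix factors such as Hand2), GATAA (bound by GATA factors), GGTGTG (the T-box core), AAGTG (the core of the NKX motif), or TATAAA.
Hand2: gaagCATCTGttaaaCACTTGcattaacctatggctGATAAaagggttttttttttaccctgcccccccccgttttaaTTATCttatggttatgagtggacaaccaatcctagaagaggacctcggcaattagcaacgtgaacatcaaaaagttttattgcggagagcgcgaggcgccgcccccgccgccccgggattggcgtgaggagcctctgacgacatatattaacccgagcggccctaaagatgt
Irx4: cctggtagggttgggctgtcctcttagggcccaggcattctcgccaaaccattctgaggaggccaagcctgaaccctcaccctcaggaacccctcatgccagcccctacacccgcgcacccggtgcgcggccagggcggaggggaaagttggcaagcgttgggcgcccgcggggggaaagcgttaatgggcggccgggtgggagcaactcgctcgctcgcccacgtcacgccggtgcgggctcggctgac
Tbx20: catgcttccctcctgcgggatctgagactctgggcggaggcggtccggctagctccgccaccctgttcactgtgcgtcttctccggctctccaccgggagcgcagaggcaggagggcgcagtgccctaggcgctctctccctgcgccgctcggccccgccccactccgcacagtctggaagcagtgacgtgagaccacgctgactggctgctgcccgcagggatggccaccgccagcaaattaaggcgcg
Mef2c: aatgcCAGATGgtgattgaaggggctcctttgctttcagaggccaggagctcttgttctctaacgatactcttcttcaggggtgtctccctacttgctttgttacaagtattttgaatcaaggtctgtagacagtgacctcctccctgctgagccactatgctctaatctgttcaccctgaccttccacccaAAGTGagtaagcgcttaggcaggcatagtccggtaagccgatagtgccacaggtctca
Hand2 held 2 E boxes, 2 GATAA matches, and 1 AAGTG match that overlapped an E box. The third start of Mef2c held 1 E box and 1 AAGTG match. None of the 5 motifs was found in the windows of Irx4 and Tbx20, of which 68.8% of the bases were G or C. Of the 32851 windows of the same length in the table, 66.2% held CANNTG, 40.7% AAGTG, 22.6% GATAA, 16.3% GGTGTG, and 12.4% TATAAA. These matches describe the letters only.

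Tbx2 fell after 4 h of storage in both ventricles. Its gene lies at chr11:85832551-85841948. In LV the 3 libraries were at 5.43, 8.31, and 9.49 CPM at 0 h and at 2.92, 3.79, and 2.5 CPM at 4 h. RV gave 5.61, 8.19, and 12.4 CPM at 0 h and 2.43, 3.27, and 3.08 CPM at 4 h. All stored libraries were below all 0 h libraries of their ventricle. The log2 fold change was -1.33 ± 0.27 (SE, n = 3) in LV, a 2.51-fold decrease (adjusted p = 0.0597). In RV it was -1.56 ± 0.31 (SE, n = 3), a 2.95-fold decrease (adjusted p = 0.0239). Tbx2 was the 1 member called in each ventricle at this time, where 0.398% of all 14564 genes tested in LV and 3.91% of 14622 in RV were called lower. In these bulk samples, fewer cells of a type and less RNA per cell cannot be told apart. The RV call held without any 1 of the 6 libraries, whereas that of LV held in 2 of 6 such fits, with adjusted p between 0.0356 and 0.25.

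After 8 h the level of Tbx2 lay between those at 0 h and 4 h. It was 7.92, 5.49, and 4.79 CPM in LV and 4.68, 3.47, and 5.78 CPM in RV. The LV libraries overlapped with those at 0 h, and the change of -0.34 ± 0.27 (SE) was not called (adjusted p = 0.46). In RV 1 library at 8 h, replicate 3 (5.78 CPM), lay above the lowest one at 0 h (5.61 CPM), and Tbx2 was called at -0.89 ± 0.31 (SE, adjusted p = 0.0872). Without RV replicate 3 at 0 h, the highest library, the RV value was -0.56 (adjusted p = 0.257).

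Tbx20 fell after 8 h in both ventricles. The gene lies on the minus strand at chr9:24718138-24774303, and 98.4% to 99.9% of its counts were given to 1 transcript, Tbx20-201. LV libraries were at 75.8, 73.1, and 71.6 CPM at 0 h and at 40.8, 58.1, and 45.0 CPM at 8 h. In RV they were at 62.3, 77.8, and 60.9 CPM at 0 h and at 42.4, 54.9, and 28.1 CPM at 8 h. No 8 h library reached the 0 h range of its ventricle. The log2 fold change was -0.61 ± 0.14 (SE, adjusted p = 0.053) in LV and -0.68 ± 0.23 (SE, adjusted p = 0.0871) in RV. The LV call held in 1 of 6 fits with 1 library left out (-0.74 to -0.51 log2, adjusted p from 0.0271 to 0.193). The RV call also held in 1 of 6 (-0.92 to -0.46 log2, adjusted p from 0.0236 to 0.258). At 4 h the levels were 57.6 to 69.4 CPM in LV and 50.7 to 66.4 CPM in RV, and neither difference from 0 h was called (-0.18 and -0.12 log2, adjusted p = 0.606 and 0.868).

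Of the T-box activator Tbx5, at chr5:119832668-119885219, no change was called in this fit. The LV levels were 19.2, 26.6, and 18.5 CPM at 0 h and 11.6, 15.4, and 14.7 CPM at 8 h, and those of RV were 21.4, 31.4, and 23.5 CPM at 0 h and 20.1, 19.7, and 10.9 CPM at 8 h. In both ventricles the 8 h libraries were all below those at 0 h. The log2 differences of -0.62 ± 0.19 (SE, adjusted p = 0.102) in LV and -0.59 ± 0.25 (SE, adjusted p = 0.146) in RV missed the threshold.

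Irx4 fell in RV after 8 h. It lies on the plus strand at chr13:73260479-73269608. Its RV level was 18.4, 20.8, and 17.6 CPM at 0 h, 12.2, 13.9, and 10.3 CPM at 4 h, and 9.09, 15.3, and 5.22 CPM at 8 h. In LV the libraries were at 19.6, 20.0, and 18.7 CPM at 0 h, 14.4, 16.7, and 13.5 CPM at 4 h, and 15.3, 19.5, and 10.3 CPM at 8 h. RV libraries after storage were all below those at 0 h, whereas LV replicate 2 at 8 h lay within the 0 h range. The log2 fold change at 8 h was -0.94 ± 0.31 (SE) in RV, a 1.91-fold decrease (adjusted p = 0.08). With the replicate block it was -1.03 ± 0.23 (SE, adjusted p = 0.0194), and in LV it was -0.37 ± 0.20 (SE, adjusted p = 0.305). At 4 h the values of -0.62 in RV and -0.38 in LV were not called.

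**Figure D2:**
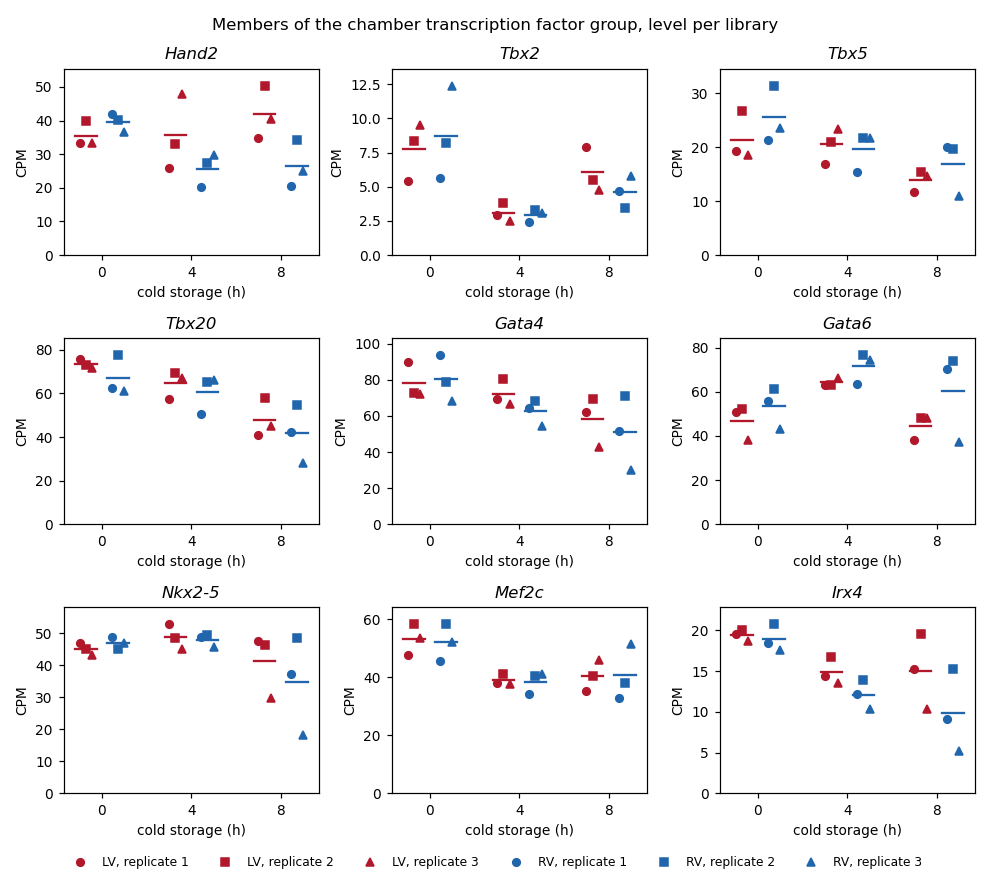
Level of the 9 members that passed the filter, in CPM from 0, against hours of cold storage. Each point is 1 library (circle, square, and triangle for replicates 1, 2, and 3), red is LV, blue is RV, and lines are group means; the drop of Tbx2 at 4 h appears in both ventricles, and RV replicate 3 at 8 h is the lowest library for 6 members.

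Irx4, Tbx2, and Tbx20 were thus the 3 members called lower in RV at 8 h, a comparison in which 5.26% of all genes tested were called lower and 13.0% higher. In LV at 8 h Tbx20 was the 1 member called lower, beside 1.26% of all genes. No member was called higher in either ventricle at 4 h or 8 h. The median log2 fold change of the 9 members at 8 h was -0.59 in RV and -0.37 in LV, beside -0.072 and -0.017 over all genes tested. These RV calls depended on single libraries. Leaving out 1 library at a time gave 0 to 6 calls, and without RV replicate 3 at 8 h the 1 remaining call was Tbx2, with Irx4 at -0.63 (adjusted p = 0.145) and Tbx20 at -0.46 (adjusted p = 0.196). Irx4 and Tbx20 were each called in 1 of 6 fits with 1 library left out (adjusted p up to 0.217 and 0.258). Tbx2 was called in 2 of 6.

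Same-numbered RV libraries of different times are different hearts, and their deviations correlated weakly (lowest 0.106 at 4 h and 0.132 at 8 h, against 0 h). In LV the lowest such values were 0.0353 and -0.0122. The fit with the number as a block thus does not pair hearts, and in RV it added calls. At 8 h it called 5 members lower, Irx4, Tbx2, and Tbx20 as before and also Gata4 and Hand2, beside 8.81% of all genes. At 4 h it called Tbx2 and Hand2 lower, beside 5.40% of all genes. What same-numbered hearts of different times share is not given in the labels.

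Gata4 lies on the minus strand at chr14:63198922-63271692. Its RV libraries were at 94.0, 78.7, and 68.5 CPM at 0 h and 51.9, 71.0, and 29.9 CPM at 8 h. LV gave 90.1, 73.0, and 72.1 CPM at 0 h and 62.1, 69.6, and 42.7 CPM at 8 h. RV overlapped through replicate 2 at 8 h, and LV did not overlap. The RV log2 fold change was -0.66 ± 0.27 (SE, adjusted p = 0.138) without the block and -0.71 ± 0.20 (SE, adjusted p = 0.045) with it. In LV it was -0.43 ± 0.18 (SE, adjusted p = 0.201). At 4 h Gata4 gave -0.12 in LV and -0.35 in RV, and neither was called.

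Its paralog Gata6, on chr18:11052064-11085635, took another course. LV libraries were at 50.6, 52.1, and 38.0 CPM at 0 h, 63.1, 63.1, and 66.2 CPM at 4 h, and 38.3, 47.9, and 48.0 CPM at 8 h. Those of RV were at 56.0, 61.2, and 42.9 CPM, then 63.6, 76.8, and 74.5 CPM, then 70.1, 74.0, and 37.3 CPM. In both ventricles the 4 h libraries were all above those at 0 h, and those at 8 h overlapped with 0 h. The 4 h differences of 0.45 ± 0.15 in LV and 0.44 ± 0.24 in RV (SE) were not called (adjusted p = 0.178 and 0.359).

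Nkx2-5 and Mef2c were not called in any comparison with or without the block. Nkx2-5, the homeodomain partner of Gata4 and Tbx5, lies at chr17:26838664-26845009 on the minus strand. Its 12 libraries at 0 h and 4 h spanned 43.1 to 52.9 CPM, a narrow range. At 8 h LV gave 47.4, 46.4, and 29.8 CPM and RV 37.3, 48.5, and 18.3 CPM, so that replicate 3 was the low one in both ventricles. The RV difference of -0.43 ± 0.27 (SE, adjusted p = 0.293) was -0.12 without RV replicate 3 at 8 h and -0.76 without RV replicate 2 at 8 h. It was called in 1 of 6 fits with 1 library left out (lowest adjusted p = 0.0593).

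Mef2c, a MADS-box factor, lies at chr13:83504034-83667080. It was at 47.8, 58.3, and 53.4 CPM in LV at 0 h and at 37.9, 41.2, and 37.8 CPM at 4 h. RV gave 45.5, 58.4, and 52.2 CPM at 0 h and 34.1, 40.3, and 41.1 CPM at 4 h. The 4 h libraries were all lower than those at 0 h in both ventricles, with log2 differences of -0.45 ± 0.13 (SE, adjusted p = 0.137) and -0.42 ± 0.20 (SE, adjusted p = 0.278). At 8 h the differences were -0.39 in LV and -0.33 in RV, and RV replicate 3 (51.3 CPM) lay within the 0 h range.

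**Figure D3:**
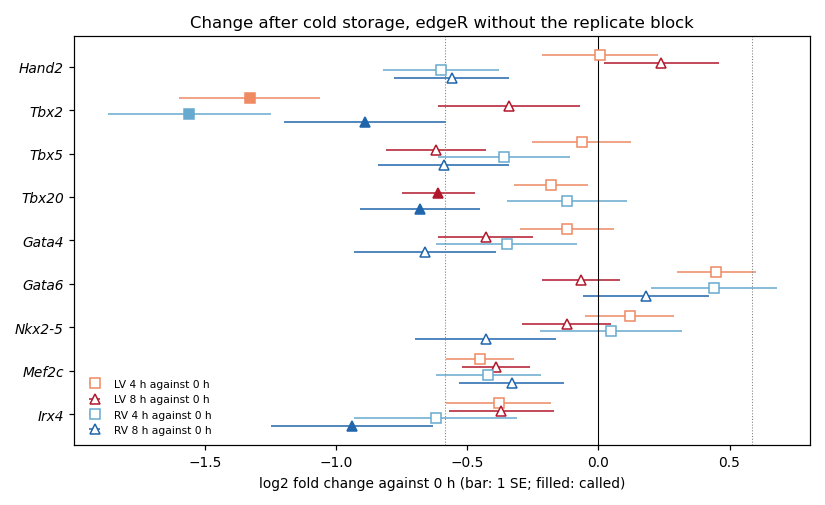
Log2 fold change of each member against 0 h in edgeR without the replicate block. Bars are 1 SE, filled symbols passed both thresholds, and dotted lines mark a 1.5-fold change; the values of Tbx2 at 4 h (-1.33 in LV and -1.56 in RV) lie farthest from 0, and Hand2 is at or above 0 in LV and below 0 in RV.

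Hand2 was lower in stored RV libraries and not uniformly so in LV, and neither ventricle was called without the replicate block. The gene, on the plus strand at chr8:57320983-57324633, had 1 transcript in the files. RV libraries were at 41.9, 40.1, and 36.5 CPM at 0 h, 20.1, 27.3, and 29.7 CPM at 4 h, and 20.4, 34.1, and 25 CPM at 8 h. In LV they were at 33.3, 39.9, and 33.2 CPM at 0 h, 25.8, 33.0, and 47.9 CPM at 4 h, and 34.7, 50.4, and 40.4 CPM at 8 h. All stored RV libraries were below the 0 h range, and stored LV libraries overlapped with it. The log2 fold change in RV was -0.60 ± 0.22 (SE, adjusted p = 0.139) at 4 h and -0.56 ± 0.22 (SE, adjusted p = 0.117) at 8 h. With the replicate block these values were -0.63 ± 0.19 (SE, adjusted p = 0.0778) and -0.60 ± 0.19 (SE, adjusted p = 0.0606), and both were called. In LV the value at 8 h was 0.24 ± 0.22 (SE, adjusted p = 0.536).

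Between 4 h and 8 h edgeR called 0 members and 0 genes in all in either ventricle (0% of 14564 genes in LV and 0% of 14622 in RV), and DESeq2 called 0 members (69 LV genes and 49 RV genes in all). The unadjusted p of edgeR was under 0.05 for 1180 LV genes and 961 RV genes, among them the members Tbx2 (0.98 log2), Gata6 (-0.52), Tbx5 (-0.56), and Tbx20 (-0.43) in LV and Tbx20 (-0.55) in RV, with adjusted p from 0.551 to 0.599.

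LV and RV libraries carried the same numbers at each time. The labels do not state that LV and RV of 1 number came from 1 heart. Same-numbered LV and RV libraries deviated together (mean correlation 0.36 at 0 h, 0.477 at 4 h, and 0.532 at 8 h). Libraries of 1 number and ventricle at 4 h and 8 h, which are different hearts, did so too (0.382 in LV and 0.363 in RV). The correlation therefore cannot show that a pair came from 1 heart. The members were compared also within same-numbered LV and RV pairs, which are treated as hearts from here on as an assumption. At 0 h no member was called with or without the block in edgeR or with DESeq2, and none had an unadjusted p under 0.05 without the block, where 0.159% of all 15093 genes were called. The differences at 0 h ran from -0.25 log2 for Tbx5 to 0.13 for Tbx20. Hand2 was at -0.15 ± 0.23 (SE), that is, lower in LV by less than its error, and Irx4 at 0.04 ± 0.28 (SE). Without the block neither tool called a member at 4 h or 8 h either, where edgeR called 0.0133% and 0.0331% of all genes, and Hand2 and Irx4 at 8 h were those with an unadjusted p under 0.05.

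After 8 h Hand2 and Irx4 were higher in LV than in RV of the same number in the paired fit. For Hand2 the pairs were 34.7 and 20.4 CPM, 50.4 and 34.1 CPM, and 40.4 and 25 CPM in LV and RV. For Irx4 they were 15.3 and 9.09 CPM, 19.5 and 15.3 CPM, and 10.3 and 5.22 CPM. LV was the higher one in all 3 pairs of both genes. With the heart as block the difference was 0.67 ± 0.091 log2 (SE, adjusted p = 0.000681) for Hand2 and 0.66 ± 0.11 (SE, adjusted p = 0.0016) for Irx4, a 1.59-fold and a 1.58-fold difference, and 2.25% of all genes were called higher in LV in this fit. Without the block the same differences were 0.66 ± 0.23 (adjusted p = 0.316) and 0.61 ± 0.29 (adjusted p = 0.452).

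In the paired fit the change from 0 h to 8 h also differed between the ventricles for these 2 genes. With the heart as block the LV change exceeded the RV change by 0.83 ± 0.13 log2 (SE, adjusted p = 0.0035) for Hand2 and by 0.62 ± 0.14 (SE, adjusted p = 0.0256) for Irx4, where 0.994% of all genes were called in this direction. Without the block edgeR called 0 of 15093 genes (0%) for the change to 4 h and 0 (0%) for that to 8 h (158 and 628 at an unadjusted p under 0.05, and 0 and 2 called with DESeq2), and Hand2 was at 0.81 (adjusted p = 1). For Hand2 LV was higher in 0 of 3 pairs at 0 h, 3 of 3 at 4 h, and 3 of 3 at 8 h. The 0 h pair of number 2 was nearly equal (39.9 and 40.1 CPM in LV and RV), and no difference at 0 h was called. At 4 h the paired difference of Hand2, 0.44 ± 0.091 (SE, adjusted p = 0.0327), was below 1.5-fold and so was not called.

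**Figure D4:**
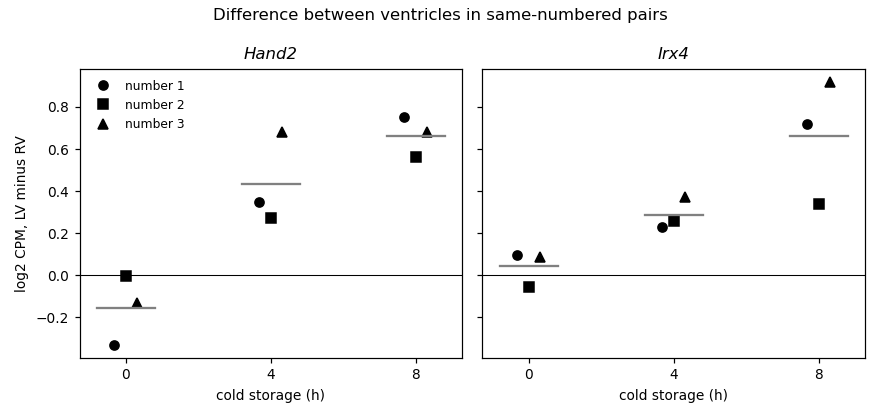
Difference in log2 CPM between LV and RV of the same number, for Hand2 and Irx4, at 0, 4, and 8 h. Each symbol is 1 pair and grey lines are means of 3 pairs; the means run from -0.16 to 0.43 and 0.66 for Hand2 and from 0.042 to 0.29 and 0.66 for Irx4.

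Whole hearts were left out in turn, an alternative chosen after the data had been seen. The 8 h difference of Hand2 was called without any 1 of the 3 hearts (0.63 to 0.74 log2), and the difference in its change without any 1 of 6 (0.74 to 0.91). For Irx4 the 8 h difference was 0.55 to 0.86 log2. Without heart 3 it was 0.55 log2 (1.46-fold, adjusted p = 0.00322), under the fold threshold, and was not called. The difference in its change was 0.50 to 0.81 log2 and was called in 3 of 6 such fits. It was not called without heart 2 at 0 h (0.57 log2, adjusted p = 0.101), heart 1 at 8 h (0.57 log2, adjusted p = 0.106), or heart 3 at 8 h (0.50 log2, 1.41-fold, adjusted p = 0.0331). Without heart 3 at 8 h, 2 other members were called at 8 h, Tbx2 higher in LV (0.72 ± 0.16, SE, adjusted p = 0.0078) and Gata6 higher in RV (-0.75 ± 0.080, SE, adjusted p = 9.49e-05). For Gata6 the LV and RV levels were 38.3 and 70.1 CPM in heart 1 and 47.9 and 74.0 CPM in heart 2, but 48.0 and 37.3 CPM in heart 3.

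Over all 9 pairs of the 3 times, the mean LV minus RV difference of Irx4 was 0.33 ± 0.311 log2 CPM (SD), with LV higher in 8 of 9 pairs (exact sign-flip permutation test, two-sided, p = 0.00781). It was 0.16 ± 0.23 for Tbx20, with LV higher in 7 of 9 pairs (exact p = 0.0469), and 0.31 ± 0.393 for Hand2, with LV higher in 6 of 9 (exact p = 0.0547). Gata6 was higher in RV in 8 of 9 pairs by a mean of 0.24 (exact p = 0.0742). These p-values are not adjusted for the 9 members tested, and the smallest that 9 pairs allow is 0.00391. In edgeR's mean over the 3 times no member was called, with or without the block, and 1.18% of all genes were called without it.

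RV replicate 3 at 8 h stood apart. It had the lowest level of all 18 libraries for 6 of the 9 members, namely Tbx5, Tbx20, Gata4, Gata6, Nkx2-5, and Irx4. The summed level of 7 cardiomyocyte markers was 26454 CPM there, against 41125 and 50640 CPM in the other RV libraries at 8 h and 52169 to 60582 CPM in RV at 0 h. In LV the sum was 37182 to 44226 CPM at 8 h and 49741 to 60286 CPM at 0 h. At 8 h it thus moved in the same direction as Tbx20 and Irx4. At 4 h it was 53693 to 55883 CPM in RV and 49791 to 55890 CPM in LV, within the 0 h ranges. Irx4 at 4 h was below its 0 h range in both ventricles. The largest part of the sum was Myh6, at 12720 CPM in RV replicate 3 at 8 h against 24932 and 31540 CPM in the other RV libraries at 8 h. Not every marker was lower there, since Myl2 was at 4292 CPM against 3570 and 4232 CPM, and Tnni3 at 2605 CPM against 2580 and 2874 CPM. All 7 markers were detected in every group, and of their single genes Myh6, the main adult myosin heavy chain of mouse, was called lower in LV at 8 h (-0.63 log2, adjusted p = 0.041). The part of the cardiomyocyte sum in the members' changes was not tested.

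Transcript shares within Gata4 also singled out the libraries labelled replicate 3. The files divide its counts mainly among 3 transcripts, of which Gata4-203 begins within the gene (chr14:63198924-63213607) and has 2407 bases, and Gata4-201 and Gata4-202 are longer and begin upstream of it. Gata4-203 took 13.4%, 19.0%, and 29.9% of the counts in LV at 0 h and 6.46%, 6.61%, and 47.9% in RV. At 8 h it took 28.1%, 34.9%, and 40.4% in LV and 20.3%, 16.4%, and 56.2% in RV. Replicate 3 held the highest share in each of the 6 groups. For Irx4 the shorter transcript Irx4-202 took 100% of the counts in RV replicate 3 at 8 h and 73.9% in RV replicate 3 at 0 h, against 13.9% to 38.7% in the 4 other RV libraries of those times, but 17.7% in RV replicate 3 at 4 h. The division of reads among transcripts of a gene is an estimate, and its part in the gene levels was not tested. With transcript length offsets in the fit, 2 members rather than 3 were called in RV at 8 h.

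**Figure D5:**
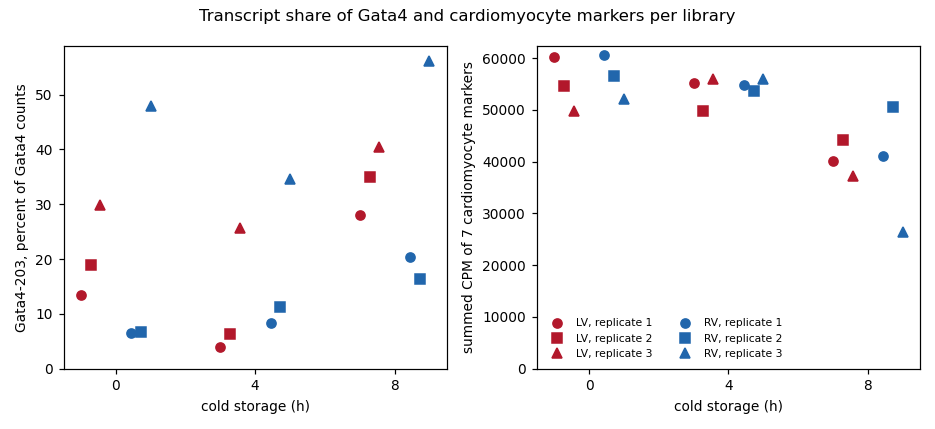
Share of Gata4 counts given to Gata4-203 in percent (left) and summed CPM of 7 cardiomyocyte markers (right), against hours of cold storage. Each point is 1 library, red is LV and blue is RV, and triangles are replicate 3; RV replicate 3 at 8 h has the highest share (56.2%) and the lowest marker sum (26454 CPM).

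Mef2c had 31 transcripts in the files. Mef2c-212, which starts at the third start shown above (chr13:83573607), took 42.6% to 75% of its counts. Mef2c-201 and Mef2c-202, which start upstream at 83504240 and are close in length (6217 and 6277 bases), took 0.0796% to 36.9% and 0.0196% to 25.2%, and their split varied between libraries of 1 group. Tbx5-201 took 90.4% to 98.6% of the Tbx5 counts.

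Calls among markers of other cells were as follows. Of 7 leukocyte markers, the 8 h comparisons called 2 higher in LV and 3 in RV, where 5.46% and 13.0% of all genes were. Ptprc (CD45) was among these markers, at 1.00 log2 in LV and 1.35 in RV. Their summed level stayed within 55.3 to 149 CPM in all groups. Tcf21 was the 1 of 7 fibroblast markers called in RV at 8 h, where it was higher, as were 13.0% of all genes. The fibroblast sum was 852 to 892 CPM at 0 h and 895 to 1657 CPM at 8 h in RV. Endothelial, mural cell, conduction system, and mesothelial markers gave 1, 2, 0, and 0 calls in RV at 8 h, all lower. In that comparison 5.26% of all genes were called lower. In LV the calls were 0, 0, 2, and 0, Tbx3 higher (0.97 log2) and Cacna1g lower (-0.69 log2). There 5.46% of all genes were called higher and 1.26% lower. The 7 atrial markers gave no call against 0 h, but their sum ran from 57.7 to 839 CPM in RV and from 132 to 363 CPM in LV, with the highest value in RV replicate 1 at 8 h. Bmp10, an atrial ligand, was at 5.52 CPM there, and over the 3 times it was lower in LV. Tbx5 and Gata6 were not highest in that library. In its pair (number 1 at 8 h) LV minus RV was -0.76 log2 for Tbx5 and -0.86 for Gata6. For both genes this was the largest RV excess of the pairs. The part of atrial tissue in the ventricular differences was not tested. Summed Y-linked counts were low (4.63 to 6.78 CPM, against 133 to 194 CPM elsewhere) in replicate 2 at 0 h and in replicate 3 at 4 h and 8 h of both ventricles, so that each group held 1 such library.

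Other transcription factors of the heart were counted in the same fits. Of 34 listed, 29 were tested in LV and 30 in RV. In RV at 8 h 5 were called lower and 5 higher, where 5.26% and 13.0% of all genes were. Those lower were Hey1 (-1.83), Heyl (-1.67), and Hey2 (-0.78), the Notch-driven repressors of the Hey family, with Nr2f1 (-0.72) and Meis1 (-0.65). The higher ones were Sox9 (1.97), Foxc1 (1.42), Foxc2 (1.28), Nfatc1 (1.13), and Tcf21 (0.98), which are known from valve, endothelial, and fibroblast lineages. In RV at 4 h 5 were called lower (Hey1, Nr2f2, Sall4, Heyl, and Meis1) and 2 higher (Sox9 and Nfatc1). There 3.91% of all genes were called lower and 6.17% higher. Hey1 was at 10.4 ± 1.62 CPM in RV at 0 h and at 2.72 ± 0.936 CPM at 4 h (SD, n = 3).

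In LV at 4 h and 8 h 1 and 2 of the 29 were called lower and 1 and 2 higher. Of all genes 0.398% and 1.26% were called lower there. The difference between LV and RV in these changes, without the block, was called for none of the 31 tested, as for all genes. At 8 h Hey1 (-1.18) and Hey2 (-0.84) were lower and Foxc1 (1.47) and Tbx3 (0.97) were higher, where 5.46% of all genes were called higher. Tbx3, the T-box repressor related to Tbx2 and known from the conduction system, was at 9.06 ± 1.24 CPM at 0 h and 17.6 ± 0.52 CPM at 8 h (SD, n = 3). At 4 h Nr2f2 (-1.16), a factor of venous and atrial identity, was lower and Srf (0.75), a partner of the muscle program, was higher, where 2.40% of all genes were called higher. Over the 3 times, Irx5 was higher in LV (0.69 log2, adjusted p = 0.00398) and Hey2 was lower in LV (-0.80 log2).

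Of 23 cofactors and regulators of the members, Tle3, a Groucho corepressor, was called higher in all 4 comparisons with 0 h. It was at 0.85 and 1.00 log2 in LV (4 h, 8 h) and 0.79 and 1.28 in RV. In these comparisons 2.40% and 5.46% of all genes were called higher in LV and 6.17% and 13.0% in RV. Id2, a helix-loop-helix inhibitor, rose in LV at both times (1.11 and 1.29) and in RV at the later one (1.43), and Id3 in both ventricles at 8 h (0.71 and 1.04). Among class IIa histone deacetylases, which bind Mef2 proteins, Hdac7 (-1.28 and -1.30) and Hdac9 (-0.65 and -0.61) were lower in RV at 4 h and 8 h, and Hdac5 was higher at 8 h (0.61). Zfpm2 (FOG2), a partner of GATA factors, was lower in LV at 8 h (-0.63). Of all genes 3.91% and 5.26% were called lower in RV at 4 h and 8 h, and 1.26% in LV at 8 h.

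The BMP pathway, through which Tbx2 and the Id genes are known to be induced, was counted over 16 genes, 14 tested in LV and 15 in RV. Bmp2 was called higher in all 4 comparisons, from 3.44 ± 1.26 CPM at 0 h to 9.32 ± 1.90 CPM at 4 h and 9.26 ± 3.77 CPM at 8 h in LV. In RV it went from 2.86 ± 0.875 to 10.6 ± 2.05 and 17 ± 3.93 CPM (SD, n = 3), while Tbx2 was lower at both times. Smad7, an inhibitory Smad, was higher in LV at 4 h (1.53) and in RV at 4 h and 8 h (1.79 and 1.21). In RV Smad9 was lower (-1.67 and -1.99) and Smad1 higher at 8 h (1.35). Of all genes 2.40% and 5.46% were called higher in LV at 4 h and 8 h, and 6.17% and 13.0% in RV. Those called lower in RV were 3.91% and 5.26%.

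Genes that the members are known to drive were counted as a list of 24, all tested. In LV 1 was called, Myh6, which was lower at 8 h, where 1.26% of all genes were. In RV 1 was called lower and 1 higher at 4 h, where 3.91% and 6.17% of all genes were, and 2 were called lower at 8 h, where 5.26% of all genes were. In RV Gja5, the connexin of fast-conducting tissue, was lower at 4 h (-0.97) and 8 h (-0.60), Nppb was higher at 4 h (1.78), and the potassium channel subunit Kcnip2 was lower at 8 h (-0.85). Between ventricles at 0 h Nppb (2.96 log2, adjusted p = 0.0657) and Myh7 (1.55 log2, adjusted p = 0.0658) were higher in LV.

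Among the 15092 other genes that passed the filter, those with the most similar course over the 18 libraries were found by Pearson's r of log2 CPM. For Nkx2-5 they were Nfs1 (r = 0.97), Mypn (0.969), and Fbxw5 (0.966), and for Gata4 they were Wdr41 (0.969), Exoc6 (0.969), and Rufy1 (0.963). Irx4 was nearest to Ankrd46 (0.968), 3425401B19Rik (0.965), and Rnf170 (0.962), and Tbx20 to L3hypdh (0.965), Ccdc141 (0.951), and Vps53 (0.946). Tbx2 was nearest to Rbak (0.957), Gm12258 (0.945), and Taok2 (0.942). The first of Mef2c was Xndc1 (0.919), that of Tbx5 was Npc1 (0.905), that of Gata6 was Dusp18 (0.861), and that of Hand2 was Igip (0.852). Mypn, a sarcomere protein, and Ccdc141 and 3425401B19Rik, both high in heart muscle, are the muscle genes among those named. The 18 libraries share hearts and storage times, so that these values describe the set and carry no test.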

How the data were processed

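For each library, grouped by ventricle, storage time, and number in its label, the authors deposited expected counts (estimated counts) and TPM per transcript, from Kallisto with default parameters against mouse GRCm38, without scaling across libraries. Default Kallisto uses no strand, so that reads of a gene and an overlapping antisense gene were not told apart. Counts were summed to GENCODE vM21 genes by transcript identifier (110203 of 111462 matched) and rounded. TPM served for the order of levels. Floors cover counting error only.

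Genes passing filterByExpr were scaled by TMM and tested with edgeR 4.0.16 in R 4.3.3 (quasi-likelihood, Benjamini-Hochberg), storage times over the 9 libraries of a ventricle and ventricles over all 18. SE is the log2 fold change divided by the square root of F. Pairs and correlations used log2(CPM + 0.5). In data simulated for LV at 8 h against 0 h (15093 genes), 60% of genes changed 1.5-fold and 98% of those changed 2-fold were called by the rule used throughout (adjusted p under 0.1, fold over 1.5). Of the calls, 8.2% were unchanged genes. A 1.5-fold change lies at the fold threshold itself. The simulation gave all genes the same dispersion, no heart effect, and changes only above a minimum count. Recovery in the real data may therefore be lower.

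Both ventricles of each heart were collected according to the study, and the labels leave it unsaid whether 1 number stands for 1 heart. By the correlation of same-numbered deviations from group means, LV and RV pairs all exceeded 0.1 (lowest 0.249), as did RV times (lowest 0.106), and LV at 4 h and 8 h against 0 h did not (lowest 0.0353 and -0.0122). P-values rest on the spread between these samples, and with the block on what is left of that spread after the block. Alternatives were DESeq2 1.42.0, RLE size factors, no filter, length offsets, the replicate block, a Y-linked covariate, mitochondrial genes left out, other libraries in the fit, another threshold, and each library left out. Python 3.11.15, pandas 2.3.3, and numpy 2.4.6 were used.

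All 10 members are named, with up to 4 of the largest called changes per list and comparison and the 3 genes nearest to each member. Other list genes were added after their values were seen. The members and lists were chosen with earlier results of these data known. A result for 1 gene of the lists is not reported here.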

Additional observations from a re-analysis of the deposited data

Results flagged for a closer look

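The change from 0 h to 8 h of storage differed between LV and RV for Hand2 (LV change larger by 0.83 log2, adjusted p = 0.0035) and for Irx4 (by 0.62 log2, adjusted p = 0.0256) in edgeR's test of the difference with same-numbered LV and RV libraries as a block. Without the block neither was called (0.81 and 0.57 log2, adjusted p = 1 for both). Dixon's test for single outlying samples was not run, since each group held 3 libraries.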

How the results depend on the processing

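Counts of members called moved under some settings. In LV at 4 h the 1 call became 0 at an adjusted p under 0.05 without a minimum fold, and leaving out 1 library gave 0 to 1. In LV at 8 h the 1 call became 2 with DESeq2, the replicate block, or the Y-linked covariate (Tbx5 added each time, at -0.61, -0.62, and -0.60), and 0 at the stricter threshold or with all libraries in the fit, and 0 to 1 without 1 library. In RV at 4 h the 1 call became 2 with DESeq2 or the block. In RV at 8 h the 3 calls became 0 at the stricter threshold, 5 with the block or with all libraries in the fit, and 0 to 6 without 1 library. Between ventricles at 8 h the 0 calls became 2 with the block, and 2, 2, and 3 with the block and heart 1, 2, or 3 left out. Where the changes to 8 h were compared, the 0 calls became 2 with the block, and with 1 heart left out 1 (heart 2 at 0 h or heart 1 at 8 h) or 2. The causes were not tested. Of the 108 fold changes (9 members in 12 comparisons), 36 turned sign under at least 1 setting. None of these 36 was called in the design used throughout (at most 0.31 log2 in size, adjusted p of 0.648 or more). With 1 library left out, in LV at 4 h Hand2 ran from -0.27 to 0.19 and Tbx5 from -0.17 to 0.12, and in LV at 8 h Gata6 from -0.20 to 0.034 and Nkx2-5 from -0.24 to 0.051. Between 8 h and 4 h the ranges were Mef2c (-0.044 to 0.15) and Irx4 (-0.18 to 0.22) in LV, and Hand2 (-0.18 to 0.21), Tbx5 (-0.36 to 0.021), Gata6 (-0.43 to 0.0049), Mef2c (-0.13 to 0.23), and Irx4 (-0.78 to 0.00052) in RV. Between ventricles at 0 h they were Tbx2 (-0.40 to 0.17), Gata4 (-0.15 to 0.11), Mef2c (-0.047 to 0.13), and Irx4 (-0.0055 to 0.12). At 4 h they were Tbx2 (-0.11 to 0.20), Tbx5 (-0.087 to 0.18), Tbx20 (-0.028 to 0.16), Nkx2-5 (-0.037 to 0.079), and Mef2c (-0.066 to 0.067). At 8 h they were Tbx20 (-0.0097 to 0.46), Gata4 (-0.072 to 0.52), Nkx2-5 (-0.05 to 0.58), and Mef2c (-0.14 to 0.20), and over the 3 times Nkx2-5 (-0.024 to 0.19) and Mef2c (-0.029 to 0.087). Comparing the ventricles in their change to 4 h, they were Tbx2 (-0.089 to 0.47), Tbx20 (-0.18 to 0.017), Gata6 (-0.12 to 0.16), and Mef2c (-0.11 to 0.059), and for that to 8 h Tbx5 (-0.26 to 0.16), Tbx20 (-0.15 to 0.32), Gata4 (-0.044 to 0.55), and Mef2c (-0.18 to 0.17). Hand2 in LV at 4 h (0.006 in the design used) also turned with no filter (-0.0012), length offsets (-0.0054), the replicate block (-0.023), the Y-linked covariate (-0.02), and mitochondrial genes left out (-0.0014). Mef2c between ventricles at 8 h turned with no filter (0.012), the replicate block (0.011), and the Y-linked covariate (0.0018). With length offsets Mef2c turned in LV between 8 h and 4 h (-0.0099), between ventricles at 0 h (-0.13) and over the 3 times (-0.079), and in the difference in change to 4 h (0.20). The block turned Irx4 in LV between 8 h and 4 h (-0.0075). With the block and 1 heart left out, signs turned between ventricles for Gata4 at 0 h (0.0074), for Tbx2 (-0.025 and -0.009), Nkx2-5 (-0.018), and Mef2c (-0.043) at 4 h, and for Tbx5 (0.016) and Mef2c (0.10) at 8 h. They turned in the difference in change to 4 h for Tbx20 (0.022), Gata6 (-0.047), and Mef2c (0.0071 and 0.052), and in that to 8 h for Tbx5 (0.031, 0.26, and 0.03), Tbx20 (-0.029 and -0.13), Gata6 (0.037), and Mef2c (0.062). Of 1215 checks of fold changes other than single libraries left out, 1145 kept direction and side of the threshold, 8 lost the call, 31 gained it, and 31 turned sign. With 1 library left out, 764 of 864 checks kept both, 23 lost the call, 4 gained it, and 73 turned sign. In LV, where same-numbered libraries of stored and 0 h hearts did not all correlate over 0.1, the block changed no call but that of Tbx5. All libraries in the fit could not be set against the main design for the mean over times and the differences in change, which already used them. Depth limits Hand1, which stayed under 3 counts in every library.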
